A study of Homo sapiens with 18 samples.

Results

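The genes described here are 48 genes of mitosis and the G2/M transition, chosen by their symbols and grouped by role: 7 for the cyclins, CDK1 and its activators, 3 further mitotic kinases, 5 of the spindle checkpoint, 5 around the anaphase-promoting complex and separase, 4 of the chromosomal passenger complex, 6 of the centromere and kinetochore, 6 kinesins, 5 spindle proteins, 4 of cytokinesis, and 3 of chromosome structure and transcription. Each gene had exactly 1 probe set, so 48 of 21448 tested probe sets were described, of which 17709 had a gene symbol. Signals were measured on Clariom S arrays in SKOV-3, an established ovarian carcinoma cell line, with 1 array per sample and 6 groups of 3 arrays. EV cells carried the empty vector, AA cells a PEA-15 in which both regulatory serines are alanine, and DD cells a PEA-15 in which both are aspartate, all on a pcDNA3-HA plasmid. From 24 h after transfection the cells were kept for a further 24 h in medium, called untreated below, or in 15 µM cisplatin. No selection of the transfected cells is described. The study asked how the phosphorylation state of PEA-15, a small scaffold protein that holds ERK1/2 in the cytoplasm, bears on the response to cisplatin.

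Entry into mitosis is driven by cyclin B bound to CDK1, which CDC25 phosphatases switch on and which PLK1 and the Aurora kinases assist. Kinesins and spindle proteins then build the spindle, the kinetochore ties chromosomes to it, and the spindle checkpoint restrains the anaphase-promoting complex until every chromosome is attached. Transcripts of these genes are made mostly late in the cell cycle, held down in resting cells by the DREAM complex and raised by MYBL2 and FOXM1. Cisplatin crosslinks DNA, and cells with such damage commonly halt before mitosis.

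All values are log2 signals per probe set. The median over all probe sets was 6.53 to 6.61 on the untreated and 6.33 to 6.44 on the treated arrays. Of the 6 epithelial markers measured, KRT8, KRT18, KRT19 and EPCAM read at least 11.61 and KRT7 8.51 to 10.10 on every array, while CDH1 was below the 95th percentile of the 612 negative control probe sets on all 18 arrays. Among these markers KRT19 fell by 1.60 with cisplatin (adjusted p = 7.4e-13), while KRT7 rose by 0.96 (adjusted p = 9.7e-07) and KRT8 by 0.24 (adjusted p = 0.00157). PECAM1, VWF, PDGFRB, CD3E, CD14 and ACTA2 were below that percentile on all arrays too, and COL1A1 did not exceed 7.57. PTPRC, the leukocyte antigen CD45, read 11.71 to 12.34 untreated and 9.52 to 10.10 treated, and its part in the results below was not tested. The probe set for PEA15 averaged 10.25 ± 0.17 (SD, n = 3) in untreated EV, 9.93 ± 0.11 in AA and 10.76 ± 1.33 in DD cells, and 11.18 ± 0.30, 10.21 ± 0.22 and 10.96 ± 0.59 under cisplatin. It was thus not higher on the arrays labelled AA than on those labelled EV, and no source says whether its probes cover the plasmid insert. The study checked its transfections at the protein level by Western blot, which was not analysed here, and they are taken as labelled. The titles of the 3 untreated EV arrays also carry the letters cis, while their other labels name medium. On these 3 arrays the 48 genes averaged 12.51 to 12.61, within the 12.50 to 12.61 of the other untreated arrays. These are the same genes whose change is described below. CDKN1A, which is not among the 48, read 5.85 to 7.35 on all untreated arrays, these 3 included, and 11.45 to 12.28 on the treated arrays. The labels do not name separate cultures behind the arrays of 1 group, and the p-values therefore measure only the spread between arrays, which may be technical. In bulk RNA, fewer cells in a phase of the cycle and less RNA per cell cannot be told apart.

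Cisplatin lowered most of the 48 genes and raised a few. Over all transfections 37 fell and 6 rose at an adjusted p under 0.05 (limma, Benjamini-Hochberg over all 21448 probe sets), and 5 were not called. Across all probe sets 28.7% were called lower and 36.5% higher. The median log2 change was -0.93 for the 48 genes and 0.10 for all probe sets. For 40 of the 48 genes the 9 treated and the 9 untreated arrays did not overlap (31.3% of all probe sets), the treated arrays lying below for 35 genes and above for 5. The mean signal of the 48 genes was 12.50 to 12.61 on the untreated and 11.51 to 11.96 on the treated arrays, with no overlap. When each array was first centred on its own median, after which all probe sets together had a median of 0.30, 35 genes were called lower and 9 higher, against 23.4% and 56.1% of all probe sets, MAD2L1, BIRC5 and KIF2C being the 3 added to those called higher.

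**Figure D1:**
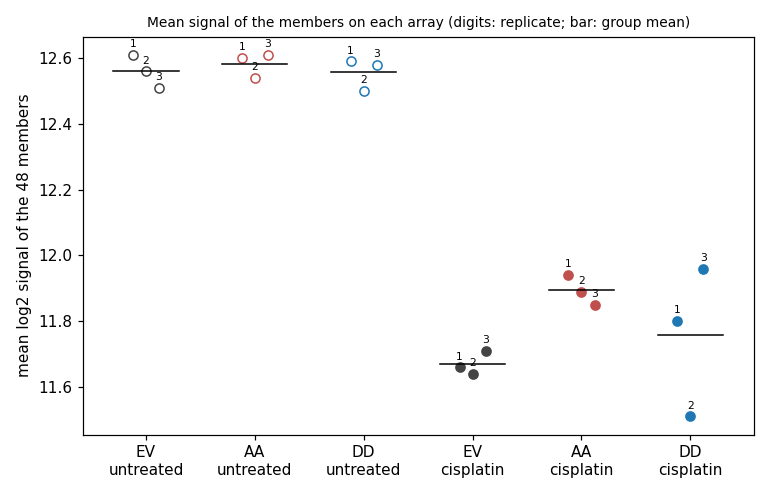
Mean log2 signal of the 48 genes on each of the 18 arrays (y axis) by group (x axis), with open points for untreated and filled points for cisplatin-treated arrays, digits for the replicate and bars for group means. The untreated arrays lie between 12.50 and 12.61 and the treated arrays between 11.51 and 11.96, and replicates 2 and 3 of treated DD cells are the lowest and the highest of the treated arrays.

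KIF4A, a chromosome-bound kinesin, and KIF11, the motor that pushes the spindle poles apart, had the largest falls. CKS2, a small subunit of CDK1 kinase complexes, and PTTG1, the securin that inhibits separase, had the largest rises. KIF4A read 11.53 to 11.78 (median 11.73) on the untreated and 9.49 to 10.04 (median 9.57) on the treated arrays. Every treated array was lower by more than a unit, and the change was -2.03 ± 0.08 (SE, 9 arrays against 9), or 4.09-fold, with an adjusted p of 1.1e-13. KIF11 went from 11.39 to 11.78 (median 11.54) to 9.13 to 10.13 (median 9.66), a change of -1.86 ± 0.11 (adjusted p = 3.0e-11). Here too the treated and untreated arrays were far apart. CKS2 read 12.78 to 13.16 (median 12.98) untreated and 13.74 to 14.10 (median 13.93) treated. It rose by 0.95 ± 0.08, or 1.94-fold (adjusted p = 2.6e-09), with no overlap. PTTG1 read 10.89 to 11.51 (median 11.28) untreated and 11.85 to 12.51 (median 12.18) treated, a rise of 0.95 ± 0.10 (adjusted p = 1.3e-07), again with no overlap.

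Promoters of these 4 genes, the extremes in either direction, are printed from RefSeq (GRCh38.p14) as 250 bases before to 50 bases after the transcript start, 5′ to 3′ on the plus strand, on which all 4 genes lie. Capitals mark 2 motifs known from promoters of late cell cycle genes, searched on both strands: the cell cycle genes homology region (CHR, TTTGAA or TTCGAA), which the DREAM and MYBL2 complexes bind, and the CCAAT box, the site of NF-Y. The windows are chrX:70289854-70290153 for KIF4A, chr10:92592880-92593179 for KIF11, chr9:89310945-89311244 for CKS2 and chr5:160421605-160421904 for PTTG1.
KIF4A: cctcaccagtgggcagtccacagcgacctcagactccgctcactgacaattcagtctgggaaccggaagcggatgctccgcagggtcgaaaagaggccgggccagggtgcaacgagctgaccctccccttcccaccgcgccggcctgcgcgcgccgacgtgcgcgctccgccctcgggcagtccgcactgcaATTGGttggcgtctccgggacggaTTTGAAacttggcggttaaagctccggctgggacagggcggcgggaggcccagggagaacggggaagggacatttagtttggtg
KIF11: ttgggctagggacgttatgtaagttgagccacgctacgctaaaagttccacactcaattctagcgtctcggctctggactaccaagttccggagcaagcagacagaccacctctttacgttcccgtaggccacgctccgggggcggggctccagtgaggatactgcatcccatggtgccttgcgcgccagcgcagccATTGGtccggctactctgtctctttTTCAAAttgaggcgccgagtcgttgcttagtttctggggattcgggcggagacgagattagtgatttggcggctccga
CKS2: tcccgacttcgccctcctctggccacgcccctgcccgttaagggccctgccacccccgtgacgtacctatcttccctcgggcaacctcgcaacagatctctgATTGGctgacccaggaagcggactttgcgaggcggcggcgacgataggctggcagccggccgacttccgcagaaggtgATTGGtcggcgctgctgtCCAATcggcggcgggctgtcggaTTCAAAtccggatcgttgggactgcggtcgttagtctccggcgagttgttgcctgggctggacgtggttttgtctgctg
PTTG1: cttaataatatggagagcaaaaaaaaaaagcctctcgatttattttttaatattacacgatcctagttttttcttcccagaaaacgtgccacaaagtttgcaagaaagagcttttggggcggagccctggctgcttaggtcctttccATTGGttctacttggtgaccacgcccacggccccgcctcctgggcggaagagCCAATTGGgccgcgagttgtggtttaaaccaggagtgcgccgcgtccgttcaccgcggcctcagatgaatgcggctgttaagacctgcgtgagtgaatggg

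KIF4A holds a CHR whose first printed base lies 34 bases before the start and a CCAAT box, on the opposite strand, 58 bases before it. In KIF11 the CHR lies 28 and the CCAAT box 53 bases before the start, both on the opposite strand. CKS2, which rose, has the same kind of arrangement, with a CHR at 29 bases and CCAAT boxes at 148, 70 and 52 bases before the start. PTTG1, which also rose, has CCAAT boxes at 103, 51 and 48 bases, of which the last 2 overlap on opposite strands, and no match to either CHR spelling in this window. Of the 48 genes 40 had a promoter in the RefSeq table. Among these 40, 30 (75.0%) held a CHR, 32 (80.0%) a CCAAT box and 26 (65.0%) both, compared with 13.4%, 36.4% and 5.52% of all 14250 promoters of the same length. A CHR was present in 24 of the 31 promoters of genes that fell and in 3 of the 5 of genes that rose, CDK1, CKS2 and ESPL1. The CCAAT box was present in 24 of those 31 and in 5 of those 5. On the given strand only, 15 of the 40 promoters (37.5%) held both motifs, beside 1.92% of all promoters, and a CHR was present in 2 and a CCAAT box in 4 of the 5 of genes that rose. A match is only a run of letters in this window, not a measured binding site.

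The cyclin and CDK1 group had 5 genes that fell and 2 that rose, CDK1 and CKS2. CCNB1, the mitotic cyclin B1, read 13.05 to 13.38 (median 13.17) untreated and 11.36 to 12.14 (median 11.78) treated. All treated arrays were lower, and the change was -1.39 ± 0.09, or 2.62-fold (adjusted p = 2.5e-10). CDK1 itself, the kinase that cyclin B1 activates, moved the other way, from 12.02 to 12.45 (median 12.32) untreated to 12.49 to 12.96 (median 12.68) treated. Its arrays came close but did not overlap, and it rose by 0.49 ± 0.08 (adjusted p = 3.8e-05). The rise of CDK1 in EV cells alone (0.43, adjusted p = 0.0166) was not called without replicate 2 of the treated or replicates 2 or 3 of the untreated EV arrays (0.0515 to 0.0752). In DD cells (0.41, adjusted p = 0.0249) it was not called without replicate 1 of the treated or replicates 1 or 3 of the untreated DD arrays (0.0502 to 0.123). The phosphatases CDC25B and CDC25C, which activate CDK1, fell by 0.65 and 0.75. Cyclins A2 (CCNA2) and B2 (CCNB2) fell by 0.44 and 0.61, with no overlap of treated and untreated arrays.

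Of the other mitotic kinases PLK1 and AURKA fell and NEK2 rose. PLK1, which acts from mitotic entry to cytokinesis, read 15.34 to 15.63 (median 15.53) untreated and 13.83 to 14.18 (median 14.08) treated, a change of -1.47 ± 0.07 (adjusted p = 1.4e-12). Its changes in the 3 transfections lay close together, at -1.50, -1.45 and -1.46 in EV, AA and DD cells. AURKA, which matures the centrosomes, fell by 1.26 ± 0.07. NEK2, a centrosome kinase, read 11.03 to 11.31 (median 11.21) untreated and 11.41 to 12.20 (median 11.97) treated. The treated arrays were all higher, the lowest being replicate 2 of DD cells, and NEK2 rose by 0.74 ± 0.09 (adjusted p = 1.0e-06).

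In the spindle checkpoint 4 of 5 genes fell. BUB1B, which encodes the checkpoint protein BUBR1, read 13.62 to 14.16 (median 14.04) untreated and 11.58 to 12.68 (median 12.43) treated. The groups were well apart and the change was -1.71 ± 0.12, or 3.28-fold (adjusted p = 4.5e-10). The checkpoint kinases BUB1 and TTK fell by 1.60 and 1.42 and BUB3 by 0.87. MAD2L1, whose product binds and restrains CDC20, was not called, with a change of 0.14 ± 0.09 (adjusted p = 0.205) and overlapping arrays.

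The genes around the anaphase-promoting complex split, with 3 higher and 2 lower. UBE2C, the ubiquitin-conjugating enzyme of the complex, read 12.29 to 12.72 (median 12.42) untreated and 12.93 to 13.45 (median 13.21) treated. It rose by 0.75 ± 0.08 (adjusted p = 9.1e-08) with no overlap, as did PTTG1, a substrate of the complex. CDC20, the activator of the complex in mitosis, fell by 0.92 ± 0.07. CDCA3, an F-box-like protein of mitotic entry, read 7.79 to 8.32 (median 7.92) untreated and 6.04 to 6.98 (median 6.63) treated. Its treated signals were below the 95th percentile of the negative controls on all 9 arrays, so that its fall (adjusted p = 4.2e-09) is given only as at least 1.70-fold, against that percentile, and its fitted change of -1.36 is not a measured size. ESPL1, the separase that cuts cohesin, read 9.99 to 10.48 (median 10.33) untreated and 10.11 to 10.86 (median 10.58) treated. These arrays overlapped, and its rise of 0.23 ± 0.09 (adjusted p = 0.0390) was called in no single transfection in the main fit. In AA cells (0.38, adjusted p = 0.0609) it was called under several alternatives, among them centring (0.00418) and a trended, robust variance (0.0477). In DD cells it was called after centring (0.0417) and quantile normalization (0.0465). Over all transfections ESPL1 lost the call without 10 of the 18 arrays (adjusted p 0.0512 to 0.0878). It kept that call only without replicates 1 or 2 of treated and 2 of untreated EV cells, replicate 3 of treated AA cells, and replicates 1 or 2 of treated or of untreated DD cells.

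In the chromosomal passenger complex 2 of 4 genes were called lower and 2 were not called. INCENP, its scaffold, read 13.04 to 13.43 (median 13.25) untreated and 11.30 to 12.32 (median 11.88) treated, and fell by 1.41 ± 0.10, or 2.65-fold (adjusted p = 8.6e-10), with no overlap. The kinase of the complex, AURKB, changed by only -0.17 ± 0.07 (adjusted p = 0.0436), with overlapping arrays at 12.12 to 12.32 untreated and 11.73 to 12.26 treated. Its change was 0.03 after centring each array. AURKB lost the call without 13 of the 18 arrays (adjusted p 0.0502 to 0.0965), and kept it only without replicate 3 of treated or of untreated EV cells, replicate 1 of untreated AA cells, or replicates 1 or 3 of treated DD cells. BIRC5 (survivin, 0.12, adjusted p = 0.219) and CDCA8 (borealin, -0.25, adjusted p = 0.0643), the other 2 subunits, were not called. CDCA8 was called lower without replicate 1 (adjusted p = 0.00925) or replicate 2 (0.0469) of treated EV cells, with a trended, robust variance (0.0376) and among probe sets above the median signal (0.0491). These calls lean on replicate 3 of treated EV cells, which read 10.08, beside 11.23 and 10.96 for replicates 1 and 2. The treated AA and DD arrays read 11.08 to 11.30. In EV cells alone CDCA8 was called lower (-0.53, adjusted p = 0.0358). That call was lost without treated replicate 3 or any 1 of the 3 untreated EV arrays (0.0576 to 0.257).

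All 6 genes of the centromere and kinetochore fell. CENPF, a large protein of the outer kinetochore, read 12.75 to 13.04 (median 13.02) untreated and 10.65 to 11.72 (median 11.19) treated, a change of -1.79 ± 0.11, or 3.46-fold (adjusted p = 1.3e-10), with no overlap. CENPE, a kinetochore kinesin, fell by 1.54. The 3 measured subunits of the NDC80 complex, which grips microtubules, changed to different extents, NDC80 by -1.52 ± 0.10, SPC25 by -0.72 ± 0.09 and NUF2 by -0.48 ± 0.09. CENPA, the histone H3 variant of centromeres, fell by 0.42 ± 0.08, and its arrays overlapped. It was not called lower after quantile normalization of the arrays.

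Among the kinesins KIF4A, KIF11, KIF18A and KIF20A fell. KIF18A, which limits chromosome movement at the metaphase plate, fell by 1.79 ± 0.13 and KIF20A, a kinesin of the central spindle, by 0.88 ± 0.09. KIF2C, which takes microtubules apart at the centromere (0.16, adjusted p = 0.126), and KIF23, a subunit of centralspindlin (-0.15, adjusted p = 0.0818), were not called. Without replicate 3 of treated DD cells KIF23 was called lower (adjusted p = 0.0107), as it was with a trended, robust variance (0.0299) and among probe sets above the median signal (0.0486). RACGAP1, the partner of KIF23 in centralspindlin, fell by 1.00 ± 0.10.

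All 5 spindle proteins and all 4 further genes of cytokinesis fell, within narrow ranges of -1.57 to -1.08 and -1.16 to -0.94. DLGAP5, a microtubule-associated protein of the spindle, read 13.40 to 13.58 (median 13.52) untreated and 11.40 to 12.32 (median 12.02) treated, a change of -1.57 ± 0.09 (adjusted p = 3.4e-11). NUSAP1, which bundles microtubules near chromosomes, fell by 1.48 and TPX2, the activator of AURKA at the spindle, by 1.35. ASPM, of the spindle poles, fell by 1.18 and HMMR by 1.08. ANLN, the anillin of the contractile ring, read 14.77 to 15.17 (median 15.04) untreated and 13.66 to 13.95 (median 13.89) treated, and fell by 1.16 ± 0.07 (adjusted p = 2.7e-11). ECT2, which activates RhoA at the cleavage furrow, fell by 1.08 and PRC1, which bundles midzone microtubules, by 0.94. In both groups no treated array reached an untreated one.

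TOP2A, the topoisomerase that untangles sister chromatids, read 14.62 to 14.80 (median 14.72) untreated and 12.79 to 13.87 (median 13.29) treated, a change of -1.41 ± 0.11 (adjusted p = 1.2e-09). MKI67, the proliferation marker Ki-67, fell by 0.60 ± 0.09. FOXM1, a transcription factor of the G2/M genes, fell by only 0.34 ± 0.06 (adjusted p = 0.000122). For these 3 genes the treated and untreated arrays did not overlap, with FOXM1 at 12.75 to 13.01 untreated and 12.31 to 12.70 treated. FOXM1 was no longer called after centring each array.

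**Figure D2:**
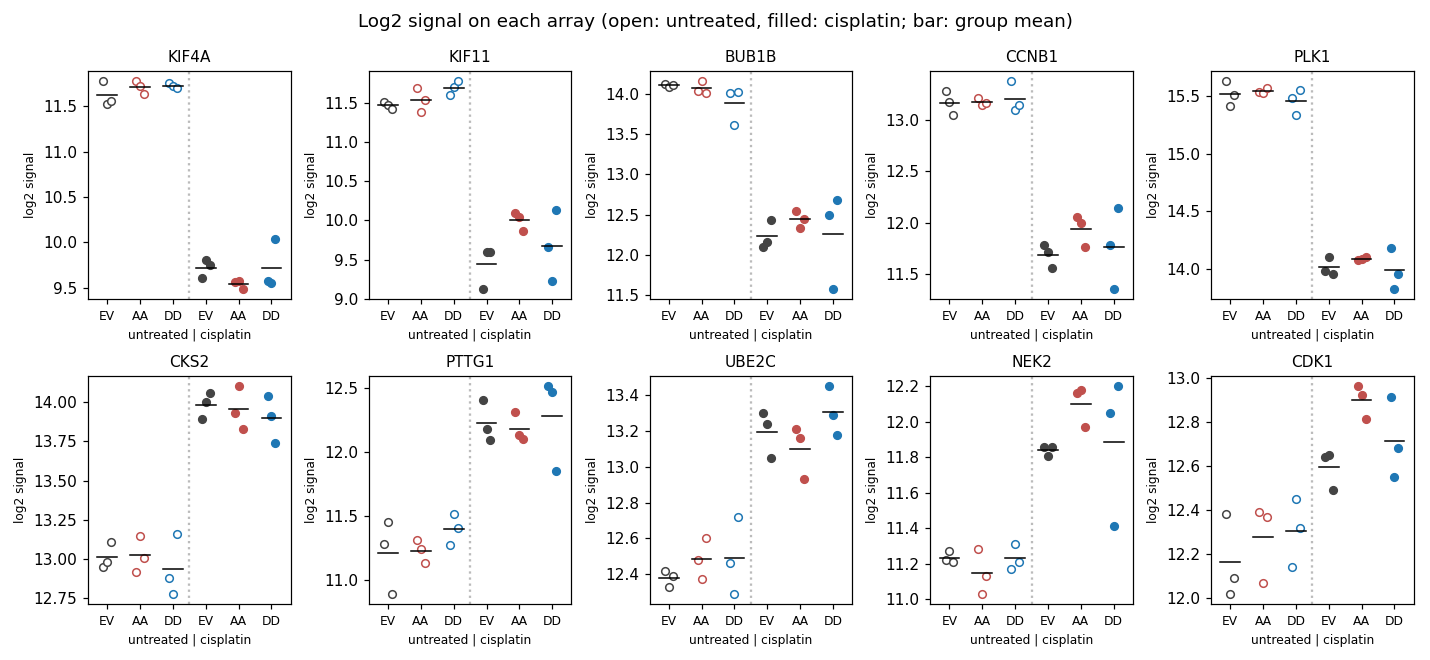
Log2 signal on each array (y axis, not starting at 0) of 5 genes that fell and 5 that rose after cisplatin, by transfection (x axis), with open points untreated, filled points treated and bars for group means. KIF4A, KIF11, BUB1B, CCNB1 and PLK1 are lower and CKS2, PTTG1, UBE2C, NEK2 and CDK1 higher on every treated array, with CDK1 closest, at 12.45 for its highest untreated and 12.49 for its lowest treated array.

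The response was examined in each transfection, which have no arrays in common. In EV cells 37 of the 48 genes fell and 5 rose (24.3% and 26.2% of all probe sets), in AA cells 35 fell and 5 rose (23.0% and 22.3%), and in DD cells 35 fell and 6 rose (22.7% and 20.1%). The median changes were -1.04, -0.87 and -0.94, beside 0.12, 0.09 and 0.04 for all probe sets. The same 33 genes fell and the same 5, CDK1, CKS2, NEK2, UBE2C and PTTG1, rose in each of the 3 transfections, no gene was called in opposite directions, and the other 10 were not called in at least 1. Some of these calls were lost when 1 array was left out. In AA cells CDC25C (adjusted p = 0.0393) was not called when any 1 of the 6 AA arrays was left out (0.0623 to 0.0940), nor CCNA2 without treated replicate 3 or untreated replicates 1 or 3 (0.0698 to 0.0996). CCNB2 lost its call there without treated replicate 3 or untreated replicate 1 (0.0571 to 0.0733), CDC25B without treated replicate 2 (0.0894) and MKI67 without treated replicate 1 (0.0615). In DD cells CDC25C was not called without treated replicate 2 or untreated replicate 1 (0.0606 to 0.0783), MKI67 without treated replicates 1 or 2 (0.0719 to 0.0887) and SPC25 without treated replicates 1 or 2 or untreated replicate 3 (0.0547 to 0.0858). Together with CDK1, described above, 7 of these 38 genes thus lost a call in 1 or 2 transfections when 1 array was left out. After centring each array CCNA2 (adjusted p = 0.437), CCNB2 (0.121), CDC25B (0.138), CDC25C (0.120) and MKI67 (0.0759) were not called in AA cells. MKI67 (0.0746) and SPC25 (0.0896) were then not called in DD cells. With a fit of only the groups compared, CCNB2 (0.0682), CDC25C (0.0797), CDK1 (0.109), MKI67 (0.0828) and SPC25 (0.0837) were not called in DD cells. Quantile normalization left CDC25C in AA (0.0903) and SPC25 in DD cells (0.0935) without a call. BIRC5 rose in DD cells (0.39, adjusted p = 0.0336), but not without replicate 1 of the treated or replicates 2 or 3 of the untreated DD arrays (0.0554 to 0.167). With the cut-offs of the study's methods, a 2-fold change at a p under 0.05 before adjustment, 25 genes fell and 1, PTTG1, rose in EV cells (13.1% and 7.05% of all probe sets). In AA cells 20 fell and 0 rose (12.3% and 7.04%), and in DD cells 23 fell and 0 rose (11.7% and 6.72%). Across the 48 genes the changes of 2 transfections had Spearman correlations of 0.96 (EV and AA), 0.98 (EV and DD) and 0.96 (AA and DD), beside 0.88, 0.86 and 0.88 across all probe sets. These are descriptions across genes, which share arrays and are not replicates.

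**Figure D3:**
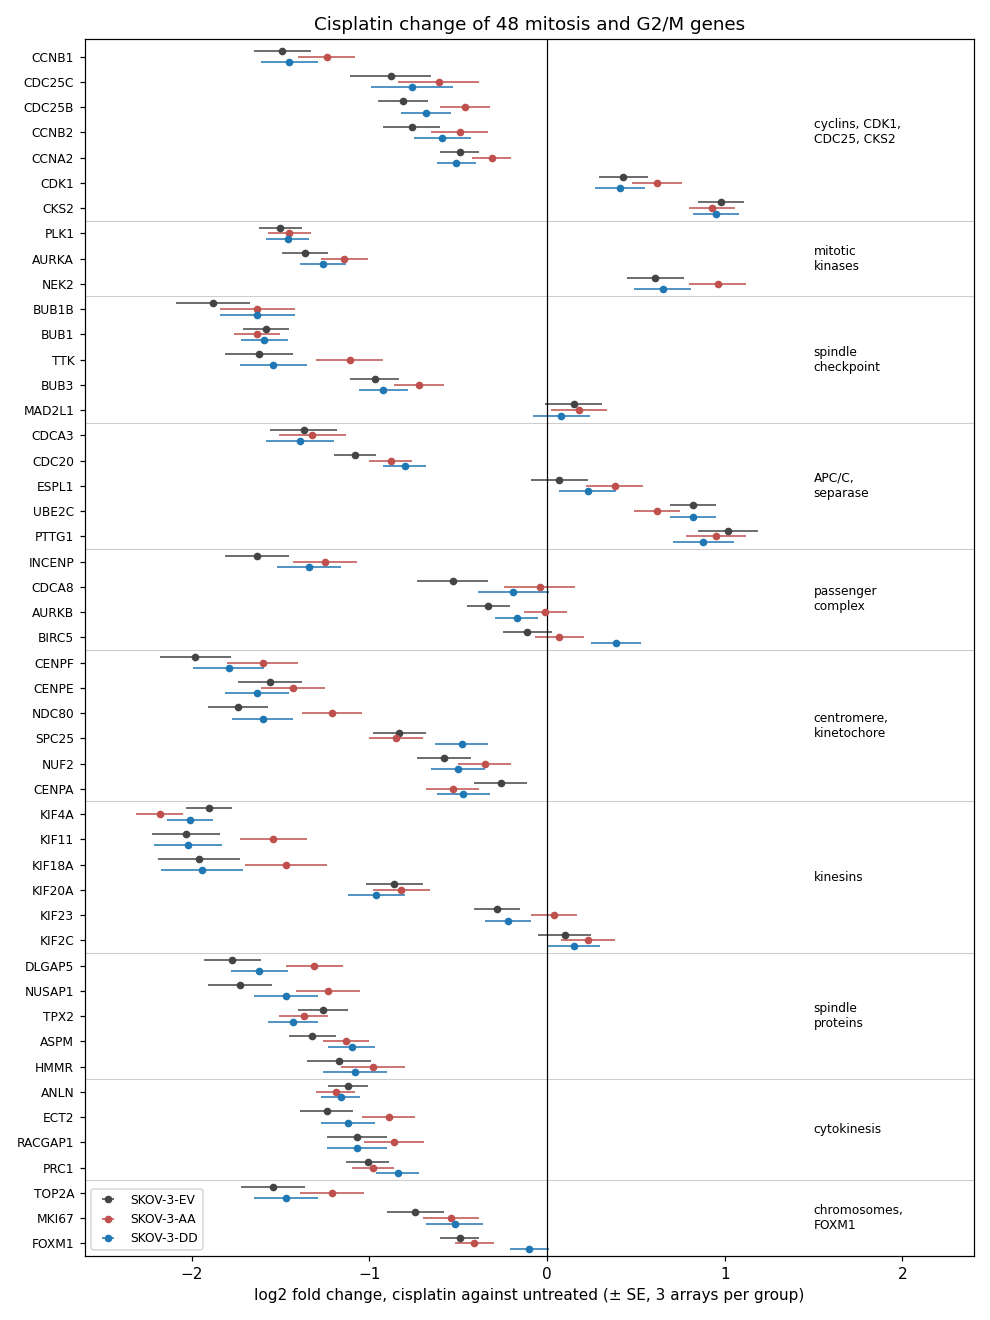
Log2 fold change of cisplatin against untreated cells (x axis) for each of the 48 genes (y axis, grouped by role), with 1 point ± SE per transfection from 3 arrays per group. CKS2, PTTG1, UBE2C, NEK2 and CDK1, to the right of 0, were called higher in every transfection. To the left of 0 lie the 33 genes called lower in every transfection, down to -2.18 for KIF4A in AA cells. Points of genes not called in every transfection lie on either side.

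The 2 treated DD arrays that stand furthest from their group are replicate 2, on which the 48 genes averaged 0.25 below the group mean, and replicate 3, 0.21 above it. Over all probe sets the root mean square deviations of these arrays were 0.305 and 0.311, beside 0.203 for replicate 1. Without replicate 2 the median change in DD cells was -0.82 with 31 genes called lower, and without replicate 3 it was -1.02 with 35. Without both it was -0.89 with 31.

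Between transfections 0 of the 48 genes passed an adjusted p under 0.05 in any of 9 comparisons, 3 in untreated cells, 3 under cisplatin and 3 of the cisplatin response, and 0% of all probe sets did. With a trended, robust variance the numbers over all probe sets were 3, 1 and 0 untreated, 1, 0 and 0 under cisplatin and 0 for each response, none of them among the 48. In untreated cells the genes at an unadjusted p under 0.05 were 0 for AA against EV (3.09% of all probe sets), 0 for DD against EV (5.47%) and 1, SPC25, for AA against DD (3.99%). The differences of the 48 genes in untreated cells were small, at most 0.36 in size. SPC25 was 0.36 ± 0.15 higher in AA than in DD cells (adjusted p = 1.00, 95% interval 0.03 to 0.68). The next lowest p-values there belonged to ANLN (0.15) and PRC1 (0.15). For AA against EV they belonged to SPC25 (0.25), CENPA (0.23) and KIF20A (0.23), and for DD against EV to BIRC5 (-0.27), CCNA2 (0.16) and FOXM1 (-0.16).

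Under cisplatin AA cells had higher signals than EV cells for 39 of the 48 genes, with a median difference of 0.26 (all probe sets 0.00, of which 50.4% were positive). Among probe sets above the median signal, which hold all 48 genes, 60.7% were positive and the median was 0.06. Of the 48 genes 14 had an unadjusted p under 0.05 (12.5% of all probe sets), and the lowest adjusted p was 0.226. NDC80 read 10.23, 10.27 and 10.65 in EV, 11.10, 10.87 and 10.85 in AA, and 10.66, 10.16 and 10.97 in DD cells. The AA arrays were all above the EV arrays, and the DD arrays spanned both. The difference between AA and EV was 0.56 ± 0.17 (adjusted p = 0.226, 95% interval 0.19 to 0.92). DLGAP5 read 11.78, 11.88 and 11.54 in EV, 12.27, 12.32 and 12.10 in AA, and 12.02, 11.40 and 12.11 in DD cells, a difference of 0.50 ± 0.16 (adjusted p = 0.231) between AA and EV. INCENP read 11.49, 11.58 and 11.63 in EV, 12.16, 12.09 and 12.10 in AA, and 11.88, 11.30 and 12.32 in DD cells, a difference of 0.55 ± 0.18 (adjusted p = 0.237). For both genes too the arrays of AA lay above all of EV, and DD replicate 2 was the lowest of all treated arrays. The treated DD arrays enter this comparison only through the shared estimate of the spread. Without DD replicate 2 INCENP was called (adjusted p = 0.0499), and without replicates 2 and 3 INCENP, NUSAP1 and DLGAP5 were called (lowest adjusted p = 0.0246), when 169 and 341 of all probe sets were. A fit of only the 6 treated EV and AA arrays, with no DD array, called 0 of the 48 genes and 0 of all probe sets. The lowest adjusted p of the 48 genes was then 0.247. Leaving out any 1 of the 6 treated EV and AA arrays left a median difference of 0.21 to 0.30, with 39 to 41 of 48 positive.

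The other 2 comparisons under cisplatin turned on the spread of the DD arrays. For DD against EV the median difference was 0.08, or 0.22 without DD replicate 2 and -0.01 without replicate 3. Of the 48 genes 38 were positive, beside 50.6% of all probe sets, nearly as many as for AA against EV. FOXM1 alone had an unadjusted p under 0.05 (0.23 ± 0.11, 7.79% of all probe sets), followed by CDCA8 (0.42) and AURKA (0.23). For AA against DD the median was 0.15, or 0.02 without DD replicate 2 and 0.25 without replicate 3. Here too 38 of the 48 genes were positive (51.7% of all probe sets). ECT2 (0.41) and DLGAP5 (0.38) had an unadjusted p under 0.05 (6.98% of all probe sets), followed by AURKB (0.25). These comparisons share arrays with each other and with the one before, so they are not separate evidence.

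The size of the cisplatin response itself differed between transfections for no gene at an adjusted p under 0.05. For AA minus EV cells the median of the 48 genes was 0.21 and 39 were positive, beside -0.01 and 49.2% for all probe sets. The median was 0.07 with 35 positive for DD minus EV cells (all probe sets -0.01 and 48.3%). It was 0.13 with 35 positive for AA minus DD cells (all probe sets 0.01 and 52.0%). For AA minus EV cells NDC80 (0.54 ± 0.25, 95% interval 0.02 to 1.06) was the 1 gene at an unadjusted p under 0.05 (6.90% of all probe sets), followed by DLGAP5 (0.46) and NUSAP1 (0.50). For DD minus EV cells 2 genes were below it, FOXM1 and BIRC5 (7.59%), followed by CDC20 (0.28). FOXM1 read 12.93, 13.01 and 12.92 untreated and 12.60, 12.46 and 12.31 treated in EV cells, and 12.75, 12.82 and 12.79 untreated and 12.68, 12.68 and 12.70 treated in DD cells. Its treated arrays were lower in both, by 0.49 and 0.10, and the difference in response was 0.39 ± 0.15 (adjusted p = 0.586). For BIRC5 the difference was 0.50 ± 0.20 (adjusted p = 0.592). For AA minus DD cells 0 genes were below it (4.70%), the lowest p-values being those of FOXM1 (-0.31), KIF11 (0.48) and SPC25 (-0.37).

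**Figure D4:**
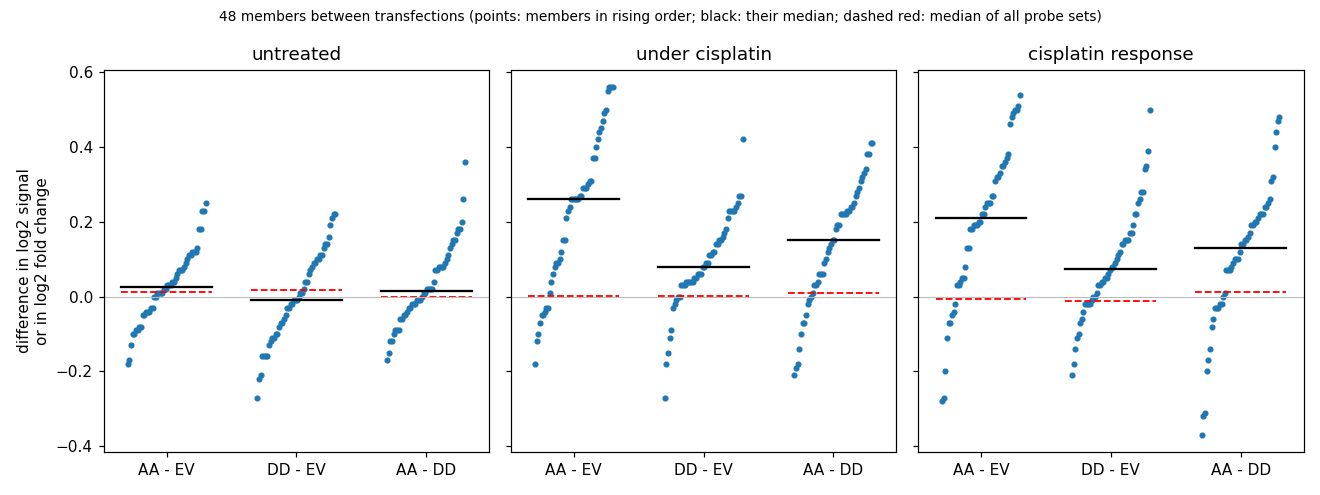
Differences in log2 signal between transfections, untreated (left) and under cisplatin (middle), and differences in log2 cisplatin response (right), for the 48 genes in rising order (points), with their median (black) and that of all probe sets (dashed red). The untreated differences centre on 0. Under cisplatin the medians are 0.26 for AA minus EV, 0.08 for DD minus EV and 0.15 for AA minus DD. No gene passed an adjusted p under 0.05 in any of the 9 comparisons.

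The genes that fell were on the median longer than those that rose. By RefSeq (GRCh38.p14) the median genomic span was 31.3 kb for the 37 genes that fell, 11.7 kb for the 6 that rose and 17.2 kb for the 5 not called, and 25.9 kb for all 17687 genes with a span. Across the 48 genes the Spearman correlation of span and mean change was -0.66 (Pearson -0.63 on log10 span), and -0.65, -0.61 and -0.66 in EV, AA and DD cells. Across all genes it was -0.46. These are descriptions across genes measured on the same arrays. KIF4A, the gene with the largest fall, spans 131 kb, KIF11 62.3 kb, CENPF 61.4 kb and BUB1B 60.1 kb. CKS2, PTTG1 and UBE2C, which rose, span 5.51, 6.89 and 4.31 kb. Within each quartile of span the median of the 48 genes was below that of all genes. In the shortest quartile of all genes, up to 9.38 kb, 6 of 9 fell and 3 rose, with a median of -0.42 beside 0.26 for all genes of that quartile. From 9.38 to 25.9 kb 7 of 13 fell and 3 rose, with a median of -0.34 beside 0.23. From 25.9 to 67.6 kb 20 of 22 fell and 0 rose (-1.27 beside -0.02), and above 67.6 kb all 4 fell, CENPE, KIF4A, KIF18A and ECT2 (-1.66 beside -0.63). Span did not order all of them, since CDC20 spans 4.22 kb and fell by 0.92, and PLK1 spans 11.5 kb and fell by 1.47. The part of gene length in these changes was not tested.

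**Figure D5:**
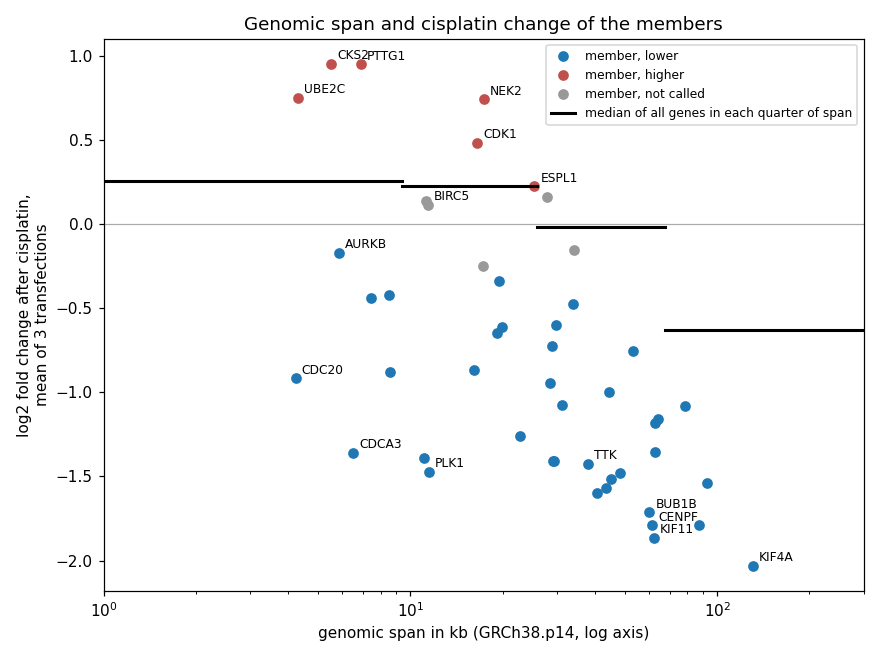
Genomic span in kb (x axis, log scale) and mean log2 fold change after cisplatin over the 3 transfections (y axis) of the 48 genes, coloured by whether they were called lower, higher or not, with bars for the median of all genes in each quartile of span. The 6 genes that rose span at most 25.3 kb, all 4 genes above 67.6 kb fell, and most of the 48 genes lie below the bar of their quartile.

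Genes of 7 neighbouring pathways were counted by the same test over all transfections, in which 28.7% of all probe sets were called lower and 36.5% higher. Of 17 core subunits and regulators of the anaphase-promoting complex 10 fell (58.8%) and 7 rose (41.2%, near the share of all probe sets), with a median of -0.30, from ANAPC1 (-1.68), which was below the negative control percentile on 4 of 9 treated arrays, and CDC27 (-1.21), both subunits, to the ubiquitin-conjugating enzyme UBE2S (2.13) and the inhibitor FBXO5 (2.30). The DREAM and MYBL2 genes, which repress and activate the G2/M genes, had 10 of 13 lower (76.9%) and 2 higher (median -0.76), with TFDP2 at -1.82 and the kinase DYRK1A at -1.78, and the MuvB subunits LIN37 at 0.82 and LIN52 at 0.43. Genes that control CDK1 went mostly up, with 12 of 19 higher (63.2%) and 4 lower (median 0.65). CDKN1A, the CDK inhibitor p21, read 5.85 to 7.35 untreated, below the negative control percentile on 2 of 9 arrays, and 11.45 to 12.28 treated, a change of 5.11. GADD45A, which is induced by DNA damage, rose by 3.48, and CCNF and BORA, an activator of AURKA, fell by 1.27 and 0.61.

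Of 20 measured of 21 listed condensin and cohesin genes 16 fell (80.0%) and 2 rose (median -0.85), beside 37 and 6 of the 48. The cohesin subunit STAG1 fell by 3.25. The cohesin regulator PDS5B, which was below the negative control percentile on 1 of 9 treated arrays, fell by 2.57. CDCA5 (sororin), which protects cohesion, and the condensin subunit NCAPH2 rose by 2.30 and 1.38. Kinetochore core genes other than those above were divided, with 12 of 26 measured (29 listed) lower (46.2%) and 9 higher (34.6%, near the share of all probe sets), with a median of -0.06, from OIP5 (-1.75) and SPC24 (-1.45), the fourth subunit of the NDC80 complex, to CENPQ (2.08). After centring each array, when 23.4% of all probe sets were lower and 56.1% higher, 9 of these 26 were lower and 13 higher. CENPT was called higher, but its signals were below the negative control percentile on all 18 arrays, so no fold is given. Of 29 measured of 32 listed further spindle and cytokinesis genes 18 fell (62.1%) and 6 rose (20.7%), with a median of -0.39, or 15 and 9 after centring. CLASP1, which stabilises microtubules, fell by 2.24, PSRC1 was at least 3.21-fold lower against the negative control percentile, which all its treated arrays were below, and TUBG1, gamma tubulin, and DEPDC1 rose by 0.50 and 0.46. Of 33 measured (34 listed) G1/S and replication genes 19 were higher (57.6%) and 10 lower (30.3%, near the share of all probe sets), with a median of 0.37. After centring 22 were higher and 7 lower, beside 56.1% and 23.4% of all probe sets. Cyclins E1 (CCNE1) and E2 (CCNE2), which drive entry into S phase, rose by 3.37 and 2.59, and the polymerase and primase genes POLA1 and PRIM1 fell by 1.60 and 1.51. The median over all probe sets was 0.10, and no test of any list against other genes was made.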

How the data were processed

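Total RNA of SKOV-3 cells was labelled with biotin and measured on 18 Clariom S arrays. The authors deposited 1 log2 signal for each probe set and array, obtained from the scanner files by SST-RMA summarization and RMA normalization between arrays in Transcriptome Analysis Console 4.1, so levels are relative to the other arrays of the study. They were used as deposited, with no count behind them, and the number of arrays limits the precision: the median standard error of a change within a transfection was 0.178. The table holds 24351 features and 0 other columns. The 2903 control features were left out, and 3739 of the 21448 tested probe sets had no symbol. A probe annotation table gave the symbols, whose genome build is not given in any source used. Spans and promoters come from RefSeq tables of GRCh38.p14, matched by the Entrez gene identifier of the probe annotation.

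The 6 group means were fitted together with limma (version 3.58.1, R 4.3.3), which left 12 residual degrees of freedom beside 5.47 prior ones, with Benjamini-Hochberg adjustment over all tested probe sets and a threshold of 0.05. A change over all transfections is the mean of the 3 changes. The study's thresholds were counted as well. The script was tested on simulated data. Signals were set against the 95th percentile of 612 negative control probe sets on the same array, and a gene below it on all arrays of a treatment has only a bound. The 48 genes and all lists were chosen with earlier results of these data known. Values over the arrays are given, in each role group, for the gene with the largest change over all transfections and for genes called against the majority, and for each comparison of transfections the 3 lowest p-values are named, with the array values of those the text turns on. For each pathway list the 2 highest and 2 lowest called changes are named. The alternatives were median centring, quantile normalization, filters on low signals, a trended and robust variance, a replicate block, only the groups compared, the probe set with the highest mean per symbol, leaving out each array or replicates 2 and 3 of treated DD cells, and motifs on the given strand only. Replicate numbers were checked for pairing: deviations of same-numbered arrays from their group means correlated at -0.05 to 0.18 over 45 pairs, 8 of them over 0.1. For 15 of 18 arrays the best correlated array of another group nevertheless carried the same number. The numbers were not taken as pairs in the main fit, and the replicate block is the alternative that uses them. Plots used matplotlib 3.10.9 (Python 3.11.15).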

Additional observations from a re-analysis of the deposited data

How the results depend on the processing

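Among the calls on the 48 genes the 1 that changed direction under an alternative was that of AURKB over all transfections, which turned to 0.03 when each array was centred on its median. Centring moved the median changes to -0.83, -0.66 and -0.76 in EV, AA and DD cells and to -0.73 over all transfections, by construction, since the treated arrays had the lower medians. With the study's thresholds the genes called higher were 1, 0 and 0 in the 3 transfections and 0 over all, and those called lower 20 in AA, 23 in DD cells and 22 over all, because of the 2-fold limit. Leaving out 1 array left 4 to 5 higher and 35 to 38 lower in EV, 5 to 6 and 32 to 36 in AA, 4 to 6 and 31 to 35 in DD cells, and 5 to 6 and 36 to 38 over all.

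Under cisplatin AA against EV gave 0 to 1 called genes when 1 array was left out (1 without replicate 2 of treated DD cells), and 3 without replicates 2 and 3 of these cells. A fit of only the treated AA and EV arrays gave 0 called genes. The other comparisons of transfections gave 0 of the 48 under every alternative. With the replicate number as a block, 6 genes were called higher and 36 lower over all transfections, and AURKB was the gene that lost its call. For 15 of 18 arrays the best correlated arrays carried the same number, a hint from the data and not from the design. On the given strand only, 19 of 40 promoters held CCAAT (21.1% of all promoters) and 15 both motifs (1.92%), since matches on the opposite strand are then not counted. Signals near the negative controls limit CDCA3 alone among the 48. Over all transfections quantile normalization called MAD2L1 and KIF2C higher and left AURKB and CENPA without a call. A trended, robust variance and the filter at the median signal each added KIF23 and CDCA8 to the genes called lower over all transfections.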
